A study of Mus musculus with 3 samples.

Results

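The subject here is the baseline transcriptome of CAD cells, as read in 1 library of cells that had received control siRNAs. CAD is an established mouse line that the labels call a neuroblastoma. As background, CAD cells arose from Cath.a, a catecholamine-making line of the mouse brain stem that was immortalised by a viral oncogene under the control of a tyrosine hydroxylase promoter, and CAD cells lost that oncogene in culture. They divide in serum and put out neurites when serum is withdrawn, and a line of this kind stands for 1 lineage of tumour cells rather than for a tissue. All 3 groups of the series were CAD cells transfected by means of a cationic lipid and taken 72 h later. The first group received control siRNAs, the second siRNAs specific to Ptbp1, and the third siRNAs for both Ptbp1 and Ptbp2, with 1 library each. Only the control library is described, and no knockdown is compared. Its members are the gene clusters of the deposited table that have a length and no value below 0, which are 27224 of 27389 clusters and carry 26837 gene names. These clusters held 16011365 reads, 66.3% of the library total of 24167120 behind the deposited values.

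Levels are given as RPKM, the reads per kilobase of exon, scaled to the library total, because only values per length can be compared between genes. A level of 1 RPKM stood for 24.2 reads on each kilobase. Where no read fell in a gene, the level that 3 reads would give is printed as the limit, which is 0.124 RPKM for 1000 bases of exon. Intervals in brackets are 95% intervals of the read number and cover counting error only. PCR copies were not marked by molecular identifiers and are not independent, so the true error is larger, and with 1 library there is no spread between cultures and no test. Gene positions are on the mm9 build.

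Cells of this kind make catecholamines, the transmitters dopamine and noradrenaline, from tyrosine. Tyrosine hydroxylase and aromatic amino acid decarboxylase give dopamine, dopamine beta-hydroxylase inside the vesicle gives noradrenaline, and vesicular and plasma membrane transporters load and retrieve the transmitter. Such cells also keep dense-core granules, which hold granins, prohormones and the enzymes that cut them. The transcription factor Phox2a switches on noradrenergic genes, whereas midbrain dopamine neurons rely on another set that includes Pitx3 and Lmx1a.

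The 5 genes that mark the line were all present. Vgf, which encodes a granule protein and peptide precursor, lay at 713 RPKM (707 to 720), the noradrenergic factor gene Phox2a at 46.1 (43.8 to 48.5), Dbh for dopamine beta-hydroxylase at 39.0 (37.4 to 40.7) and Th for tyrosine hydroxylase at 33.6 (31.9 to 35.4). Ptbp1, the gene of the splicing regulator that the series later depletes, lay at 101 RPKM (99.1 to 104). The lowest of these, Th, stood at the 94.2 percentile of all clusters, and Vgf at the 99.9.

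Levels spanned the range from no reads to 6681 RPKM. Of the 27224 clusters, 11494 (42.2%) reached 1 RPKM, called expressed below, 5188 (19.1%) reached 10 RPKM and 399 (1.47%) reached 100 RPKM. At the other end 12475 (45.8%) lay under 0.1 RPKM, called silent below, and 9896 of these (36.4% of all clusters) had 0 reads. The median was 0.240 RPKM over all clusters and 8.62 RPKM over the expressed ones. The 399 clusters at 100 RPKM or more took 28.9% of the reads, those from 10 to 100 RPKM took 52.9%, and all silent clusters together took 0.0442%. Most of the reads therefore came from the 5188 clusters at 10 RPKM or more, where 7 of 9 catecholamine synthesis genes also lay.

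**Figure D1:**
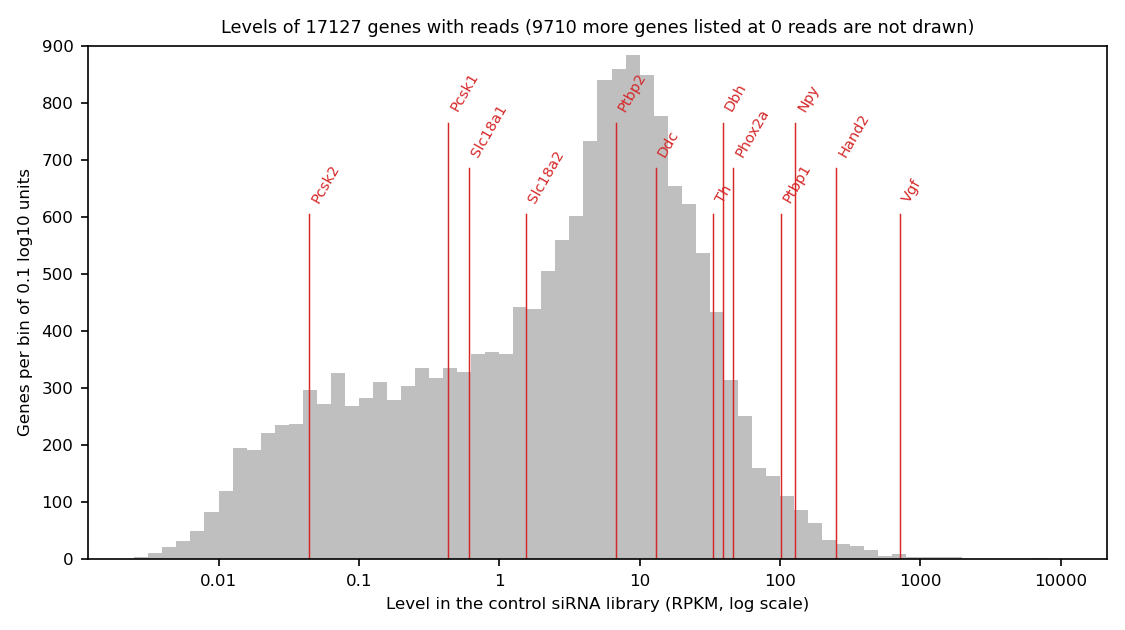
Number of genes (vertical axis) by level in the control siRNA library (horizontal axis, RPKM on a log scale, bins of 0.1 log10 units); red lines mark named genes. The distribution peaks near the median of the expressed clusters, 8.62 RPKM; Vgf (713), Hand2 (252) and Npy (129) lie in its upper tail, and Pcsk2 (0.0439) lies in the low tail.

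The most abundant transcripts were those of the mitochondrion and of protein synthesis, the cytoskeleton, chaperones and glycolysis. Clusters of the mitochondrial genome held 3.67% of the reads. Among them mt-Co1, a subunit of cytochrome c oxidase, lay at 5916 RPKM, mt-Co2 at 1634 and mt-Nd4 of complex I at 991. The ATP synthase gene mt-Atp6 was listed at 6680 RPKM with 135937 reads, and a nuclear copy of the same segment, Gm10925 on chromosome 1, was listed at 6681 RPKM with 135952 reads. The read numbers at both places were almost equal, and the nuclear value cannot be told apart from the mitochondrial one. Among nuclear genes of at least 200 exon bases, Rpl8 of the large ribosomal subunit led at 1714 RPKM. Beta-actin, Actb, followed at 1637, the chaperone Hsp90ab1 at 1468, the ATP synthase subunit Atp5b at 1392 and the beta-tubulin Tubb5 at 1302. The ribosomal scaffold gene Gnb2l1 (now Rack1) lay at 1215 and the elongation factor Eef2 at 1024. The 10 genes with the most reads took 6.75% of them, 10 nuclear genes 4.69%, 100 nuclear genes 14.9% and 1000 nuclear genes 42.5%.

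Below these came genes of other roles. Gnas, an imprinted locus for the stimulatory G protein subunit and for the granule protein NESP55, appeared as 3 overlapping clusters at 990, 974 and 589 RPKM, which share most of their reads. The gene env on chromosome 8, an endogenous retroviral envelope gene, was listed at 943 RPKM, between Gnas and Rpl4 of the large ribosomal subunit (847). Genome copies of the env sequence were not counted, so whether its reads belong to this place alone is not known. Vgf (chromosome 5, positions 137506130 to 137509221) had 44608 reads over 2588 exon bases and was 14th among these nuclear clusters, just below Rps20 (735). It was the only gene of the granin list among the first 25 clusters, and no catecholamine synthesis gene was there. Scd2, a fatty acid desaturase, lay at 668 RPKM, the endoplasmic reticulum chaperone Calr at 658 and the aldolase Aldoa at 652. Mest, an imprinted gene expressed from the paternal copy, lay at 648 RPKM, and 23.0% of its exon bases are shared with other genes. The surface glycoprotein gene Bsg, a partner of lactate transporters, lay at 623 RPKM, and lactate dehydrogenase, Ldha, at 548. Triose phosphate isomerase, Tpi1, closed the list at 540, and Fau (638), Cox4i1 (635) and Rpl14 (585) were also on it.

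Several genes that are commonly among the most abundant of a mammalian cell were low in the table. Gapdh, the glycolytic dehydrogenase often used as a reference, was listed at 11.9 RPKM (10.7 to 13.2), against 652 for Aldoa and 540 for Tpi1, the neighbouring steps of the same pathway. The prolyl isomerase gene Ppia lay at 6.17 RPKM, the chromatin protein gene Hmgb1 at 1.13 and gamma-actin, Actg1, at 42.7. These genes have many near-identical copies in the mouse genome, so the number of places to which their sequence belongs was counted in the mm9 genome. The measure was the share of a gene's coding words of 32 bases that occur more than once in the genome. All 821 coding words of Gapdh were repeated, and the typical word was found at 63 places. None of the 1820 coding words of Vgf was repeated. A typical word of Gapdh (chr6:125112288-125112319, minus strand, 63 copies) and a word of Vgf (chr5:137506856-137506887, plus strand, 1 copy) show the contrast, and the sequences are those of the reference genome.
Gapdh: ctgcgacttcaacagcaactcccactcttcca
Vgf: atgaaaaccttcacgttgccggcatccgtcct

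The Vgf word opens the reading frame of the gene, and the Gapdh word can be read from 63 places of which 1 is the gene. The repeated share was 100% for Ppia, with a median of 12 genome copies, 98.3% for Hmgb1 with 33, and 85.7% for Actg1 with 4. It was 100% for the thymosin gene Tmsb10 (20.7 RPKM), for the phosphoglycerate mutase gene Pgam1 (22.0) and for cytochrome c, Cycs (3.94). Among the most abundant genes it varied. It was 3.39% for Tubb5, 20.5% for Hsp90ab1, 25.1% for Eef2 and 40.6% for Actb, but 52.7% for Ldha, 79.8% for Rpl14, 92.3% for Rps20 and 100% for Fau and mt-Atp6. A high share thus also stood beside high levels.

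Among cytosolic ribosomal protein genes, levels were lower where genome copies were more numerous. These genes encode proteins that are needed in equal numbers in each ribosome, and their 79 clusters took 1.57% of the reads. For the 78 with a value, the 8 whose typical coding word has 1 genome copy had a median of 275 RPKM, the 62 with 2 to 9 copies had 28.6 and the 8 with 10 or more copies had 9.63. Across these 78 genes Spearman's rho between copies and level was -0.65, a description over genes of 1 library that share its reads and its mapping. Rules on reads that fit several places are not given in the sources used here, and their part in these levels was not tested. Levels of genes with many repeated words are accordingly uncertain. Over all 10786 expressed genes with a value there was no steady fall with copies. Medians were 8.73 RPKM for 10129 genes with 1 copy and 13.9 for 637 with 2 to 9. For the 20 with 10 or more copies the median was 6.49 RPKM. By share of repeated words, 9243 (85.7%) lay under 10% with a median of 8.51 RPKM. At 90% or more stood 223 (2.07%), with a median of 12.7 RPKM. Over all 20865 genes with a value, expressed or not, the medians were 1.74 RPKM for under 10% and 0.0471 for at least 90%. By copies they were 1.46 RPKM for 1 copy, 0.101 for 2 to 9 and 0 for 10 or more.

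**Figure D2:**
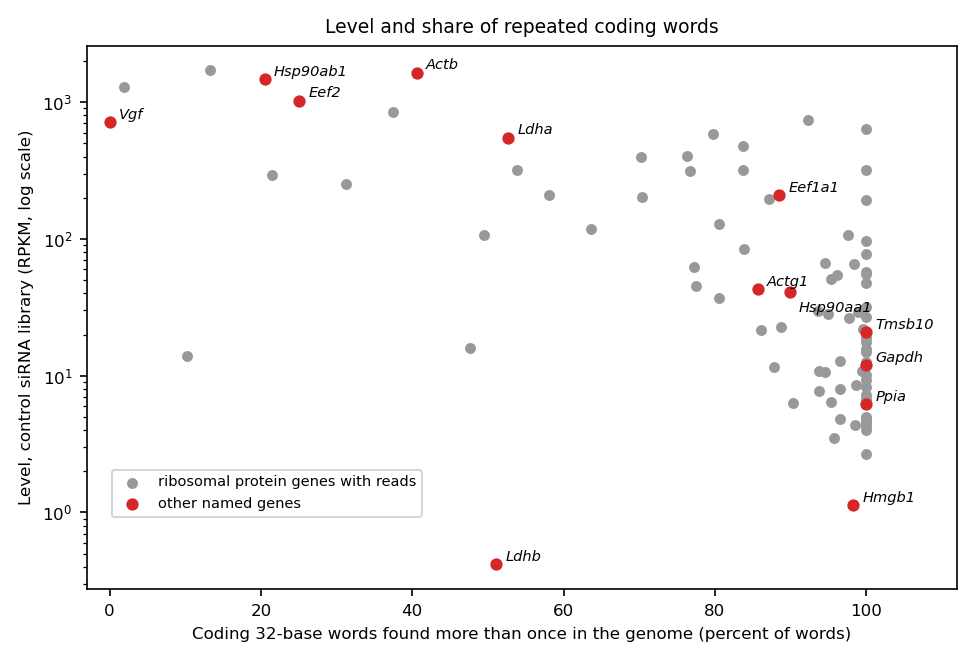
Level in the control siRNA library (vertical axis, RPKM on a log scale) against the share of a gene's coding 32-base words found more than once in the mm9 genome (horizontal axis, percent); grey points are ribosomal protein genes, red points are other named genes. Vgf at 0% and Actb at 40.6% lie high, while Gapdh, Ppia and Tmsb10 at 100% lie at or below 20.7 RPKM.

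The catecholamine pathway was expressed as far as noradrenaline. Of 9 synthesis genes, 8 were expressed, 7 reached 10 RPKM and none reached 100 RPKM, with a median of 33.6 RPKM against 0.240 over all clusters. The shares over all clusters were 42.2%, 19.1% and 1.47%. Th (chromosome 7, 150078681 to 150085871, minus strand) had 1426 reads and lay at 33.6 RPKM. Ddc, the decarboxylase, had 683 reads and lay at 13.0 RPKM (12.1 to 14.1). Dbh (chromosome 2, 27021027 to 27038724) had 2153 reads and lay at 39.0 RPKM, 1.16 times Th (1.09 to 1.24) and 2.99 times Ddc (2.74 to 3.27). The decarboxylase was thus the lowest of the 3 enzymes by more than counting error. Pnmt, which would turn noradrenaline into adrenaline, had 0 reads, which allows up to 0.140 RPKM. The cofactor of tyrosine hydroxylase, tetrahydrobiopterin, is made by Gch1, Pts and Spr and recycled by Pcbd1 and Qdpr. Gch1, the first of these enzymes, was the highest gene of the pathway at 69.8 RPKM (67.8 to 71.8). Qdpr lay at 43.4, Pcbd1 at 43.0 and Spr at 20.5, while the middle enzyme Pts was lowest at 3.67 (2.96 to 4.51).

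Transporter genes were low beside the enzymes. Slc18a2, the vesicular monoamine transporter of neurons, had 127 reads and lay at 1.54 RPKM (1.28 to 1.83), and Slc18a1, its endocrine counterpart, had 78 reads and lay at 0.607 (0.480 to 0.758). Both were thus far under the enzymes, although transmitter must enter vesicles through one of them to reach dopamine beta-hydroxylase. The plasma membrane carriers of noradrenaline, Slc6a2, and of dopamine, Slc6a3, had 0 reads, which allows up to 0.0201 and 0.0359 RPKM. Cyb561, which feeds electrons to dopamine beta-hydroxylase across the vesicle membrane, lay at 26.9 RPKM. Of the monoamine oxidases, which degrade the transmitter, Maoa lay at 7.33 RPKM and Maob had 0 reads (limit 0.0516). Of 8 listed genes of transport and breakdown 4 were expressed and 3 were silent, near the 42.2% and 45.8% over all clusters.

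Noradrenergic regulators were expressed and midbrain dopaminergic ones mostly were not. In the noradrenergic list 12 of 14 genes were expressed and 7 reached 10 RPKM, with a median of 11.0 RPKM. The shares over all clusters were 42.2% and 19.1%. Hand2, a basic helix-loop-helix factor of sympathetic cells, was highest at 252 RPKM (247 to 256), 481 times its paralogue Hand1 at 0.523 (323 to 751). Phox2a lay at 46.1 RPKM on 1522 reads, and 26.1% of its exon bases are shared with other genes. Gata2 lay at 55.1 RPKM and Gata3 at 3.44, a ratio of 16.0 (14.2 to 18.2), and the cardiac and endodermal paralogue Gata4, which is not on the list, lay between them at 17.8. Sox4 (52.7, with 54.6% of exon bases shared), Sox11 (23.0) and Isl1 (16.5) followed, all genes of young neurons.

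Among 9 midbrain factors 2 were expressed and 7 were silent, against 42.2% and 45.8% over all clusters. The expressed ones were Foxa1 at 6.26 RPKM, with reads that its paralogue Foxa2 lacked (0 reads, limit 0.0581), and the nuclear receptor gene Nr4a2 at 2.59. Pitx3 had 3 reads, Otx2 had 1 read, and Lmx1a, Lmx1b, En1 and En2 had 0 reads. The limits for these last 4 lay between 0.0351 and 0.111 RPKM.

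**Figure D3:**
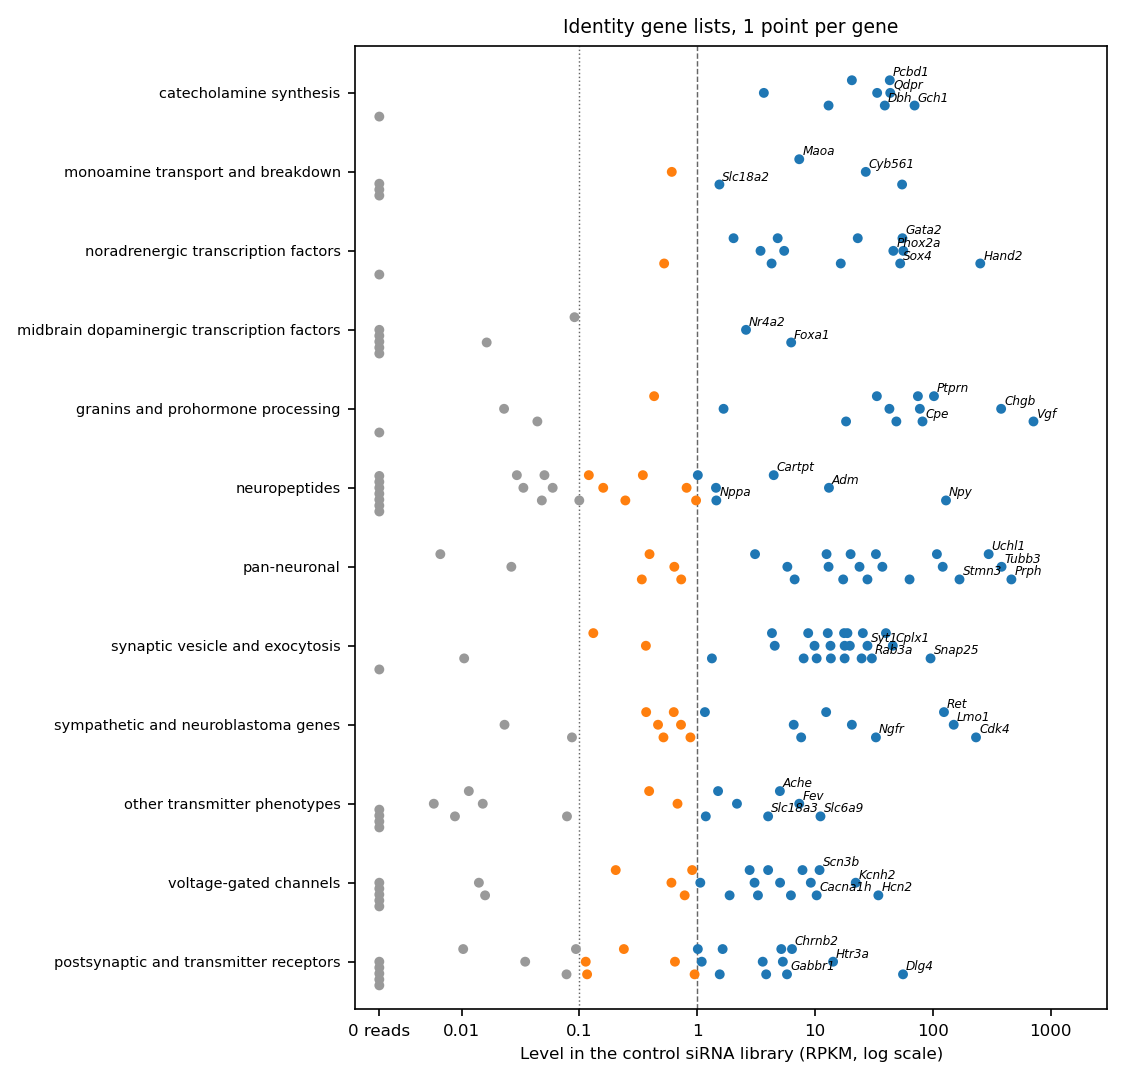
Levels of the genes of 12 identity lists in the control siRNA library (horizontal axis, RPKM on a log scale, genes with 0 reads at the left edge), 1 point per gene, with up to 4 genes named per list. Blue points are at 1 RPKM or more (dashed line), grey points under 0.1 RPKM (dotted line) and orange points between. Of the catecholamine synthesis genes 8 of 9 are blue, against 42.2% of all clusters at that level. Of the midbrain dopaminergic factors 7 of 9 are grey, against 45.8% of all clusters.

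Granule cargo was abundant, while the convertases that cut it were nearly absent. Of 15 genes for granins and prohormone processing, 11 were expressed and 10 reached 10 RPKM, and the median was 42.7 RPKM. The shares over all clusters were 42.2% and 19.1%. Chgb, chromogranin B, had 25041 reads and lay at 379 RPKM (374 to 384), so that Vgf exceeded it 1.88 times (1.85 to 1.91). Chga, chromogranin A, the granin used as the general neuroendocrine marker, lay at 33.4 RPKM, 11.4 times under Chgb (10.8 to 12.0). Scg2 lay at 74.5 RPKM, Scg5 at 48.9 and Scg3 at 42.7. Ptprn, a granule membrane protein known as an autoantigen of diabetes, lay at 102 RPKM. Trimming and amidating enzymes were present, with carboxypeptidase E, Cpe, at 81.5 RPKM and the amidating enzyme Pam at 18.3. Pcsk1n, an inhibitor of the convertase encoded by Pcsk1, lay at 77.4 RPKM. Pcsk1 itself had 32 reads and lay at 0.430 RPKM (0.294 to 0.607), and Pcsk2 had 8 reads and lay at 0.0439 (0.0189 to 0.0864). Furin, the convertase of the constitutive pathway, lay at 31.4 RPKM, 73.1 times Pcsk1 (51.7 to 107), and its relative Pcsk6 at 11.3. The priming factors of granule release, Cadps and Cadps2, had 4 and 0 reads.

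The promoters of some of these genes carry a cyclic AMP response element, the palindrome TGACGTCA, to which CREB-family factors bind. The 250 bases before the start of 4 such genes were read from RefSeq promoters on the GRCm38.p6 build, and 3 are shown because the same letters stand before genes of very different level: Th at chr7:142899996-142900245 on the minus strand, Chgb at chr2:132781392-132781641 on the plus strand and Pcsk1 at chr13:75089607-75089856 on the plus strand. Capitals mark the element.
Th: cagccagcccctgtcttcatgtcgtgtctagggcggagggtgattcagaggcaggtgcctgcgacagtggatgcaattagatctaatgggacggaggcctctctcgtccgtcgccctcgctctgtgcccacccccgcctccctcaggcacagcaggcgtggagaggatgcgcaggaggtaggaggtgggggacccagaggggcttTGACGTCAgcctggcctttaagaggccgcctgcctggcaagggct
Chgb: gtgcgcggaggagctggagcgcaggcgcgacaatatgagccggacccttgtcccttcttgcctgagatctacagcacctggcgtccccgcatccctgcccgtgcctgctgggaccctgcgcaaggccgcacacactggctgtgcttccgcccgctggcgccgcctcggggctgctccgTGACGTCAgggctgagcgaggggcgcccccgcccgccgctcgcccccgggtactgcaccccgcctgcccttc
Pcsk1: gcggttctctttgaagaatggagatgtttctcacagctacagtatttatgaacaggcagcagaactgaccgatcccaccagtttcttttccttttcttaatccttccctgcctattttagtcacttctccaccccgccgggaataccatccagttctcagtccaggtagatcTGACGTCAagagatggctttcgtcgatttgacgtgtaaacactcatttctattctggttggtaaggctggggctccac

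The element began 45 bases before the start of Th, 72 before Chgb and 78 before Pcsk1, and 68 before Scg2, whose promoter is not printed. Levels behind these promoters were 33.6 RPKM for Th, 379 for Chgb, 74.5 for Scg2 and 0.430 for Pcsk1. Since the element is its own reverse complement, a search of 1 strand covers both. It stood in 508 of 32851 promoter windows (1.55%), in 346 of 14547 genes matched by symbol (2.38%), in 3 of 13 matched granule genes, in 2 of 21 neuropeptide genes (Cartpt and Sst), in Th alone among 8 catecholamine genes and in 0 of 8 noradrenergic factor genes. Among genes matched by symbol it stood in 3.65% of 274 genes at 100 RPKM or more, 3.30% of 7535 from 1 to 100 RPKM, 2.61% of 1686 from 0.1 to 1 RPKM and 0.851% of 5052 silent genes. These shares describe letters in the window and not bound sites.

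Npy led a short list of expressed peptide genes. Of 25 neuropeptide genes 6 were expressed, 2 reached 10 RPKM and 13 were silent, with a median of 0.0996 RPKM. Over all clusters 42.2% were expressed, 19.1% reached 10 RPKM and 45.8% were silent. The expressed count thus lay under the share over all clusters, and the silent count lay near it. Npy, neuropeptide Y, the usual co-transmitter of noradrenergic cells, lay at 129 RPKM (123 to 136) on 1702 reads. Adm, adrenomedullin, a vasodilator peptide, lay at 13.1 RPKM and Cartpt, the CART peptide, at 4.45. The other 3 that reached 1 RPKM lay between 1.01 and 1.45: Nppa (61.5% of exon bases shared with other genes), Pomc and Nmb. Gal, another frequent partner of noradrenaline, had 1 read, and Penk, Pdyn, Nts and Adcyap1 had 0 reads.

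Neuronal structure genes were abundant, with an uneven choice of intermediate filaments. In the pan-neuronal list 18 of 24 genes were expressed, 15 reached 10 RPKM and 6 reached 100 RPKM, with a median of 18.7 RPKM. The shares over all clusters were 42.2%, 19.1% and 1.47%. Prph, peripherin, a filament of peripheral and autonomic neurons, was highest at 463 RPKM (457 to 469). The neuronal beta-tubulin Tubb3 lay at 382 RPKM with 25.5% repeated words, the ubiquitin hydrolase Uchl1 at 297 and the stathmin Stmn3 at 168. Gap43 of growth cones lay at 121 and the neuronal enolase Eno2 at 108. Neurofilaments are built from a light, a medium and a heavy chain. The heavy chain Nefh lay at 27.8 RPKM, the medium chain Nefm at 0.730 and the light chain Nefl at 0.393 on 19 reads. Nefh was 38.0 times Nefm (27.6 to 53.9) and Prph was 1178 times Nefl (754 to 1957). Internexin, Ina, which can assemble with other filaments, lay at 63.3 RPKM. Rbfox3, the antigen NeuN of mature neurons, had 3 reads, and Dcx of young migrating neurons had 2 reads (0.00659 RPKM). Among genes of mature neurons the microtubule proteins Mapt (13.0 RPKM) and Mtap2 (3.09) were expressed, as were the synapsins Syn1 (17.8) and Syn2 (25.4).

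The release machinery was present at moderate levels. Of 26 synaptic vesicle and exocytosis genes 22 were expressed and 16 reached 10 RPKM, with a median of 13.6 RPKM and none at 100. The shares over all clusters were 42.2% expressed, 19.1% at 10 RPKM and 1.47% at 100 RPKM. The plasma membrane SNARE Snap25 was highest at 95.4 RPKM (92.7 to 98.1), followed by the complexin Cplx1 at 45.6 and the vesicle GTPase Rab3a at 30.3. The calcium sensor Syt1 lay at 27.8, and the vesicle SNARE Vamp2 at 24.8. Of the large active zone scaffolds, Bsn lay at 1.33 RPKM and Pclo had 0 reads (limit 0.00647).

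Of 26 measured postsynaptic and receptor genes 12 were expressed and 9 were silent, with a median of 0.797 RPKM, and these counts lie close to the 42.2% expressed and somewhat under the 45.8% silent over all clusters. The scaffold Dlg4, known as PSD-95, stood out at 55.7 RPKM and the serotonin-gated channel Htr3a lay at 14.2, while Chrnb2, a nicotinic receptor subunit, lay at 6.36 and the GABA-B subunit Gabbr1 at 5.77. The obligatory partner of Gabbr1, Gabbr2, had 1 read. The dopamine receptors Drd1a (1.64) and Drd2 (1.55) were just over the limit, and NMDA receptor subunits were low, with Grin1 at 0.238 RPKM and Grin2a and Grin2b at 0 reads. Of 25 voltage-gated channel genes 14 were expressed and 7 were silent, against 42.2% and 45.8% over all clusters. The pacemaker channel Hcn2 led at 34.4 RPKM, followed by the potassium channel Kcnh2 at 22.1. The sodium channel beta subunit Scn3b lay at 10.9 and the T-type calcium channel Cacna1h at 10.3. Among the sodium channel pores Scn9a of peripheral neurons was highest at 6.23 RPKM (13.9% repeated words), then Scn8a at 3.99.

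Of 18 genes of other transmitter systems 7 were expressed and 9 silent, close to the 42.2% and 45.8% over all clusters. The glycine carrier Slc6a9 lay at 11.1 RPKM (30.2% of exon bases shared with other genes) and Fev, the ETS factor of serotonin neurons, at 7.33. Both tryptophan hydroxylases were near the limit, Tph1 at 1.50 and Tph2 at 1.18 RPKM, a ratio of 1.27 whose interval of 0.885 to 1.85 did not separate them, and the serotonin carrier Slc6a4 had 0 reads. For acetylcholine, the vesicular carrier Slc18a3 lay at 3.99 RPKM and acetylcholinesterase, Ache, at 5.02, but the synthesising enzyme Chat lay at 0.390 and the choline carrier Slc5a7 had 2 reads. Gad1, which makes GABA, had 1 read and Gad2 had 0, and the vesicular glutamate carriers had 6 reads or fewer each.

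Genes of sympathetic cells and neuroblastoma gave receptors without their usual partners. Of 17 genes 9 were expressed, 3 reached 100 RPKM and the median was 1.16 RPKM. Over all clusters 42.2% were expressed and 1.47% reached 100 RPKM, with a median of 0.240 RPKM. Ret, the receptor tyrosine kinase of the GDNF family, had 22036 reads and lay at 124 RPKM (123 to 126). Its ligand-binding co-receptors lay at 0.874 RPKM for Gfra1, 0.516 for Gfra2, 0.0863 for Gfra3 and 0 reads for Gfra4 (limit 0.123), so that Ret exceeded the highest of them 142 times (76 reads for Gfra1). The neurotrophin receptor Ngfr lay at 32.8 RPKM, whereas the neurotrophin kinase gene Ntrk2 had 0 reads. The nicotinic subunit Chrna3 lay at 12.4 RPKM and Chrnb4, with which it forms the ganglionic receptor, at 0.368, a ratio of 33.7 (23.7 to 49.4), while Chrnb2 exceeded Chrnb4 17.3 times (12.1 to 25.4). The transcription cofactor Lmo1, a neuroblastoma susceptibility gene, lay at 150 RPKM. Mycn lay at 20.5 RPKM, 1.38 times Myc (1.27 to 1.50), and the receptor kinase gene Alk at 0.727.

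The cells carried the transcripts of dividing cells. Of 33 proliferation genes 28 were expressed and 23 reached 10 RPKM, with a median of 23.5 RPKM. The shares over all clusters were 42.2% and 19.1%. Cdk4, which drives cells out of the first gap phase, lay at 232 RPKM, topoisomerase Top2a at 123, the replication clamp Pcna at 116 (76.5% repeated words) and the inhibitor locus Cdkn2a at 93.8. Cdk6, the sister kinase of Cdk4, lay at 0.211 RPKM. Among D-type cyclins, Ccnd1 lay at 42.2 RPKM and held 62.7% of the family, Ccnd3 held 37.2%, while Ccnd2 lay at 0.0607. The inhibitor Cdkn2b, next to Cdkn2a, lay at 0.484 RPKM, 194 times under it (117 to 347). All 13 genes of the REST complex, which holds neuronal genes down in other tissues, were expressed, against 42.2% over all clusters. Kdm1a lay at 51.6 RPKM, Hdac2 at 43.5, Ehmt2 at 42.8, Rcor2 at 42.0 and Rest itself at 4.47 (4.05 to 4.93).

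Splicing regulators, neuronal ones among them, stood beside Ptbp1. Ptbp1 (chromosome 10, 79317350 to 79327178) had 7191 reads, and 25.1% of its coding words are repeated in the genome and 16.3% of its exon bases shared with other genes. Its neural paralogue Ptbp2 (chromosome 3, 119421464 to 119486176, minus strand) had 784 reads and lay at 6.76 RPKM (6.30 to 7.25), 15.0 times lower (13.9 to 16.2). The third member, Rod1, now named Ptbp3, lay at 14.2 RPKM. Of 29 listed regulators 21 were expressed and 10 reached 10 RPKM, with a median of 6.70 RPKM. The shares over all clusters were 42.2% and 19.1%. The list holds Ptbp1 itself and the epithelial Esrp1 and Esrp2, so its count is not one of neuronal regulators alone. Celf3 of the CELF proteins lay at 38.4 RPKM, Elavl1 at 29.6, the STAR-family gene Khdrbs1 at 28.7 and the neuronal Elavl4 at 23.8. Srrm4, which promotes neuronal microexons, lay at 5.86 RPKM and Nova2 at 7.85. The epithelial regulators Esrp1 and Esrp2 had 1 and 13 reads, and Khdrbs2 and Khdrbs3 had 0.

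Taking each gene once, 192 of 302 measured identity genes were expressed, 18 reached 100 RPKM, 68 were silent and 36 had 0 reads, and their median was 4.80 RPKM. Of 210 lineage markers of other tissues, 44 were expressed, 3 reached 100 RPKM, 120 were silent and 73 had 0 reads, with a median of 0.0539 RPKM. Over all clusters 42.2% were expressed and 45.8% silent, with a median of 0.240 RPKM, which lies between the medians of both sets. These lists had been chosen with earlier results of the same data known, so the counts describe them and support nothing further. In a bulk library a few cells of another type and little RNA in every cell cannot be told apart.

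Several tissues had no expressed marker. None of the lists for liver, myeloid cells and microglia, kidney, bone and cartilage, melanocytes, photoreceptors and spinal or hindbrain progenitors had an expressed member. The highest gene was Cd68 in the myeloid list (0.246 RPKM), Runx2 for bone (0.398), Mitf for melanocytes (0.528) and Opn1sw for photoreceptors (0.593), and the highest levels in the liver, kidney and hindbrain lists were 0.161, 0.399 and 0.370. Globin genes had 0 reads, but over 90% of their coding words are repeated within the globin loci, so their 0 carries less weight than that of single-copy genes. Ptprc, the surface marker of all leukocytes, had 0 reads in a single-copy gene (limit 0.0193 RPKM). Insulin, glucagon and prolactin genes had 0 reads as well, but the pancreas and pituitary lists each had 1 expressed member. These were the elastase gene Cela1 at 2.62 RPKM on 84 reads and Gh, growth hormone, at 1.07 RPKM on 21 reads.

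**Figure D4:**
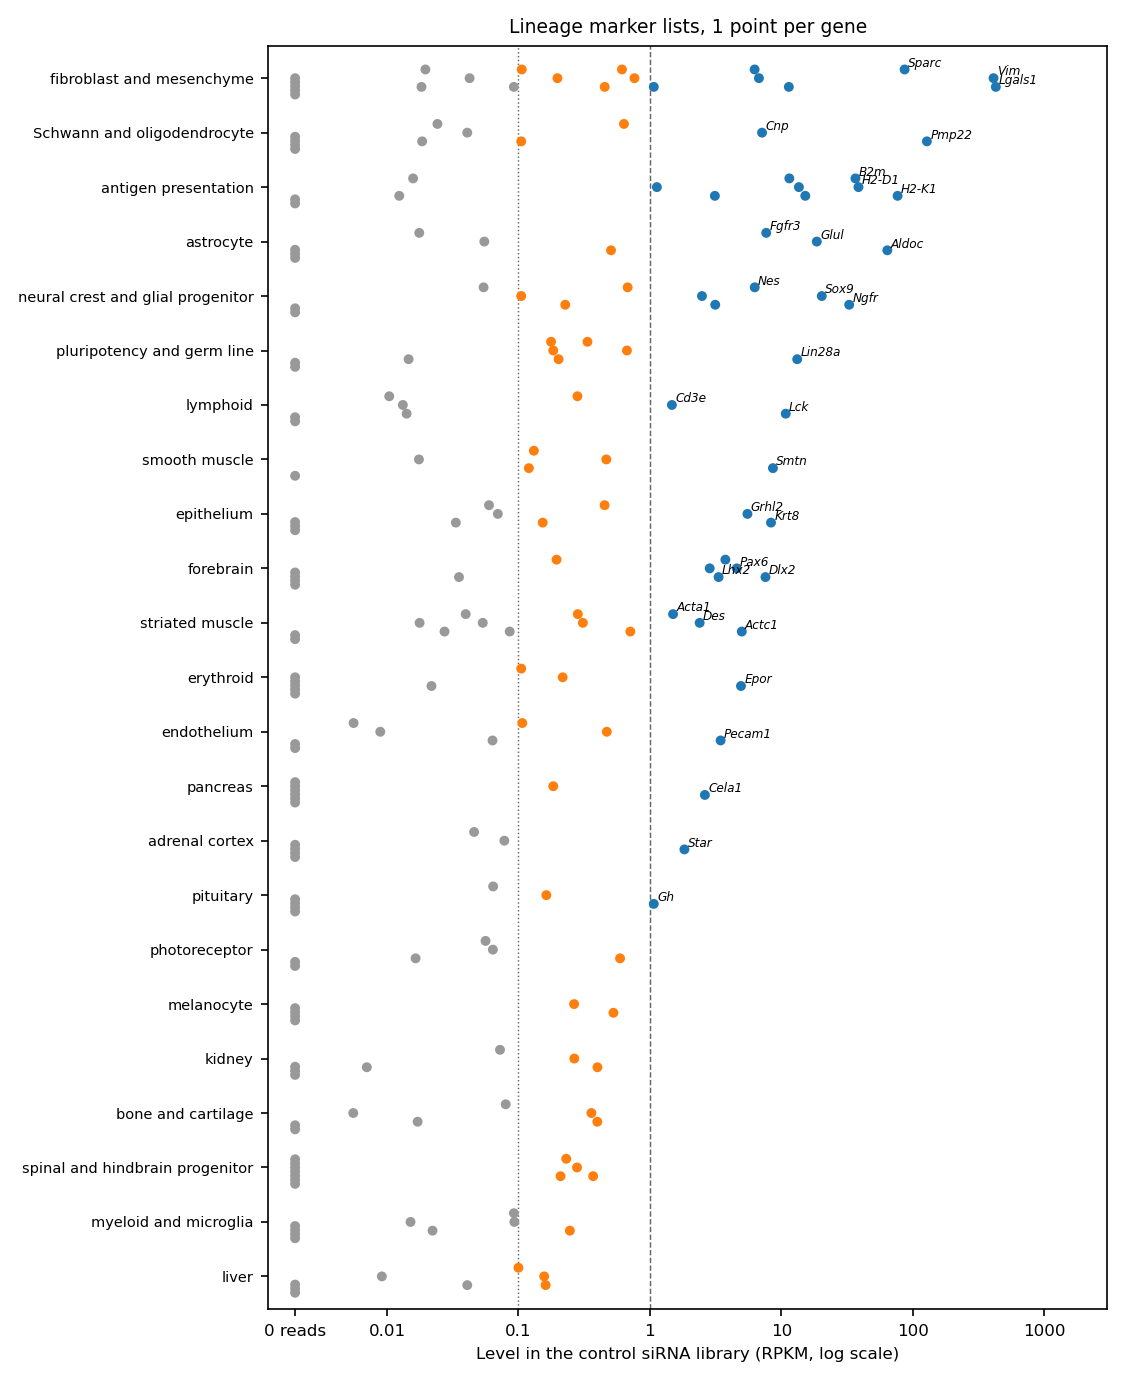
Levels of lineage markers in the control siRNA library (horizontal axis, RPKM on a log scale, genes with 0 reads at the left edge), 1 row per list and 1 point per gene, with up to 3 expressed genes named. Blue points are at 1 RPKM or more, orange from 0.1 to 1 and grey under 0.1; the lists are ordered by their highest gene, from Lgals1 (428) in the mesenchymal list down to the liver list, whose highest level is 0.161.

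The mesenchymal, crest and glial lists each held expressed members, while defining members of the same lists lay at or near 0. Of 21 fibroblast and mesenchymal genes 7 were expressed, which is under the 42.2% over all clusters. Galectin Lgals1 lay at 428 RPKM (419 to 438), the filament Vim at 411 (406 to 417), the matrix protein Sparc at 86.6 and S100a4 at 11.4. The fibrillar collagens, which define fibroblasts, were low: Col1a1 lay at 1.07 RPKM and Col1a2 and Col3a1 had 0 reads (limits 0.0124 and 0.0173). Of 11 crest and progenitor genes 5 were expressed, close to the 42.2% over all clusters. The nestin gene Nes, Ngfr and Sox9 (20.3 RPKM) belonged to these 5, while Sox10 had 7 reads and Sox2 and Pax7 had 0. In the Schwann and oligodendrocyte list the myelin gene Pmp22 lay at 128 RPKM and Cnp at 7.13, but Mbp had 3 reads, and Mag, Olig1 and Olig2 had 0. Among astrocyte genes the aldolase Aldoc (64.0), the glutamine synthetase Glul (18.6, with 48.8% repeated words) and Fgfr3 (7.67) were expressed, while Gfap, Slc1a3 and Gja1 had 0 reads.

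Some markers of distant tissues appeared without the rest of their lists. Krt8, the keratin of simple epithelia, lay at 8.34 RPKM and its usual partner Krt18 had 2 reads, a ratio of 140 (38.4 to 1158), and 68.4% of the Krt8 coding words are repeated. The epithelial factor gene Grhl2 lay at 5.52 RPKM on 648 reads, while Cdh1 had 4 reads and Epcam 0. The T cell kinase Lck lay at 10.8 RPKM and Cd3e at 1.47, with Cd4 and Cd8a at 1 read each and Rag1 at 0. The erythropoietin receptor Epor lay at 4.93 RPKM, smoothelin, Smtn, at 8.63 and the endothelial adhesion molecule Pecam1 at 3.45. Lin28a, an RNA-binding protein of embryonic cells, lay at 13.2 RPKM, 2.00 times its paralogue Lin28b (1.85 to 2.17), while Pou5f1 had 6 reads and Nanog 11. Forebrain regulators were expressed in 5 of 11 cases, close to the 42.2% over all clusters. Dlx2 lay at 7.57 RPKM, Pax6 at 4.58 and Lhx2 at 3.33, whereas Tbr1, Emx2 and Neurod6 had 0 reads. Star, which brings cholesterol into mitochondria for steroid synthesis, lay at 1.83 RPKM with the adrenal enzymes at 2 reads or fewer.

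Antigen presentation was the lineage list with the largest expressed share, 8 of 12, against 42.2% over all clusters. The class I genes H2-K1 (76.6 RPKM, 27.1% repeated words), H2-D1 (38.6, 43.1%) and B2m (36.6, 0%) led it, followed by the immunoproteasome subunit Psmb8 at 15.2. The class II genes H2-Aa and H2-Ab1 had 0 reads and their activator Ciita had 3, although the class II chaperone Cd74 lay at 11.5.

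Paralogue choice was described in 101 gene families, as the share of each member in the family's summed RPKM. In 91 families the sum reached 10 RPKM. In 16 of these the first member held 90% or more, in 12 from 75% to 90%, in 50 from 50% to 75% and in 13 under 50%, with a median first share of 63.5%. A member with 50% or more repeated words was present in 27 of the 91, and of the 50 in which every member with a value had under 10% repeated words, 3 were led at 90% or more. These 3 were Cox4i1 in COX4 (97.6%), Rbfox2 in the Rbfox proteins (98.0%) and Clta in the clathrin light chains (92.7%).

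In energy metabolism first shares ran from near the median to almost the whole family. Lactate dehydrogenase was Ldha at 99.9% of 549 RPKM, and Ldhb had 13 reads, a ratio of 1315 (769 to 2470), with 52.7% and 51.1% of words repeated. Pyruvate kinase was Pkm2 at 99.9% (64.8% repeated) over Pklr. The lactate exporter Slc16a3 held 85.9% of the monocarboxylate transporters, 6.11 times Slc16a1, with 0% repeated words in both. The neuronal glucose transporter Slc2a3 lay at 180 RPKM and Slc2a1 at 62.4, a ratio of 2.88, and Slc2a4, the insulin-responsive carrier, at 2.03. Neuronal enolase Eno2 exceeded the ubiquitous Eno1 2.14 times (108 against 50.2 RPKM), and 85.4% of Eno1 words are repeated against 0% for Eno2. The liver type of phosphofructokinase, Pfkl, held 61.1% of its family, with Pfkp at 54.5 and Pfkm at 40.5 RPKM, and Hk2 held 54.1% of the hexokinases. The adenine nucleotide carrier was Slc25a4, the muscle and brain form, at 382 RPKM against 31.3 for Slc25a5 (83.2% repeated).

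Neuronal and general isoforms stood side by side in several families. Eef1a2, the elongation factor of neurons and muscle, lay at 204 RPKM and Eef1a1 at 208 with 88.5% repeated words, a ratio of 1.02 (0.987 to 1.05). Kinesin light chains Klc2 (20.1) and Klc1 (20.0) could not be ordered either, nor Smarcd1 and Smarcd2, nor Sypl and Syp, so in 4 of the 91 families the order of the first members was within counting error. App lay at 72.2 RPKM, Aplp1 at 68.9 and Aplp2 at 51.7. Neurexins came mostly from Nrxn2 (8.29 RPKM, 95.3% of its family), and neuroligins from Nlgn2 (14.2) and Nlgn3 (3.15), while Nlgn1 had 2 reads. The general chromatin subunits Actl6a (31.0) and Smarca4 (38.7) exceeded the neuronal Actl6b (5.69) 5.44 times and Smarca2 (5.09) 7.60 times. Metallothionein Mt3, the form of the brain, led its family at 17.1 RPKM over Mt1 at 7.85. Rbfox2 at 18.6 RPKM stood against 0.345 for A2bp1, now Rbfox1, and 3 reads for Rbfox3.

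**Figure D5:**
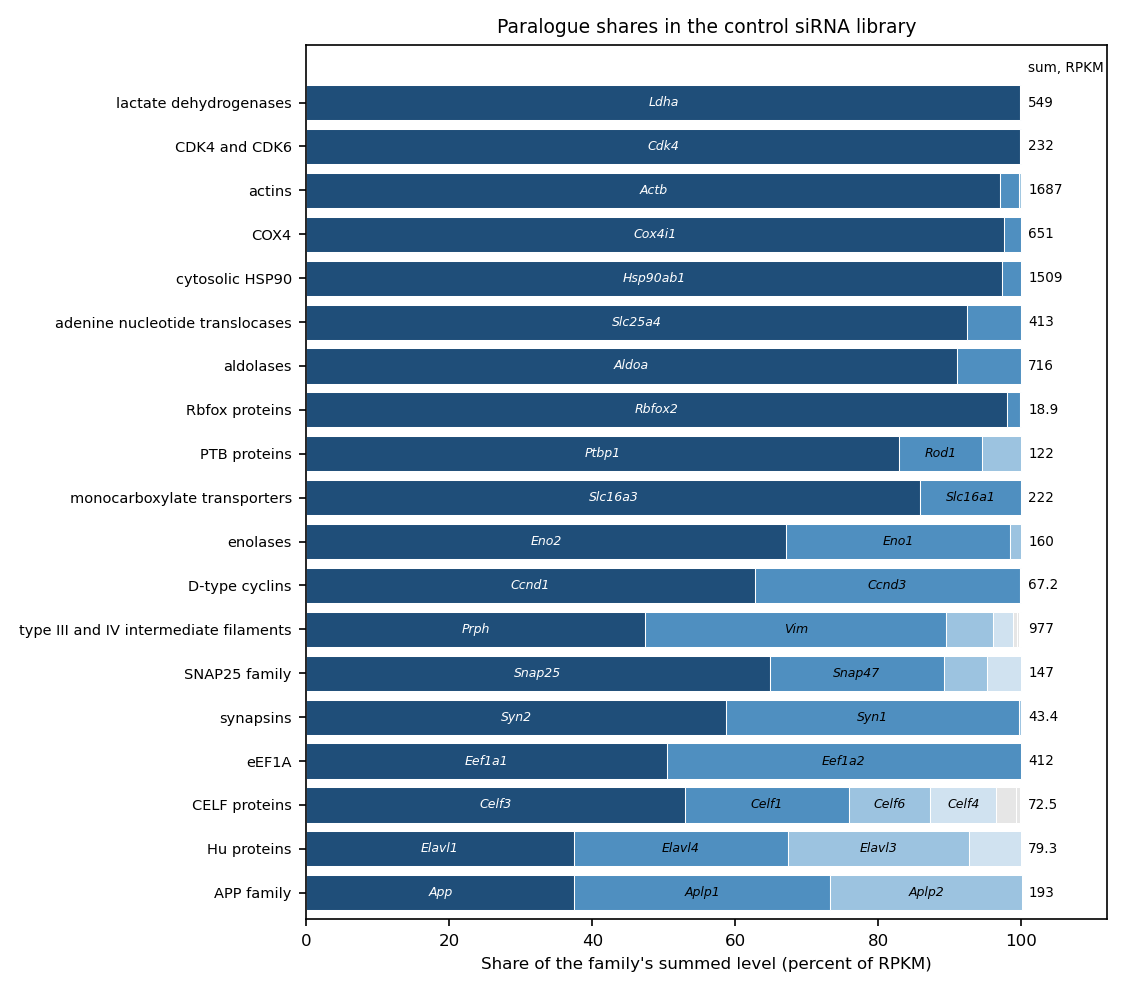
Shares of 19 families' summed RPKM held by their members (horizontal axis, percent), drawn from the first member (dark) to the last (pale), with the family sum in RPKM at the right; members above 9% are named. Ldha and Cdk4 hold 99.9% each, Eef1a1 and Eef1a2 divide their family almost evenly, and App holds 37.5% of its family.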

How the data were processed

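Poly(A)+ RNA was copied with random primers, amplified over 15 cycles and read as 36-base pairs, per the labels' protocols, a scheme that does not mark strand. The deposited table gives, per gene cluster, whole-number net read values and RPKM values that the authors computed on mm9, per the file headers (the build also per the submitters' processing notes). Of the 27389 clusters, 38 hold values below 0 in at least 1 library (7 in the control) and 127 lack a length; both were left out. What was subtracted, whether reads or pairs were counted, the aligner, the counter and the gene set are not given in the sources used here, so intervals are approximate. RPKM divides reads by length and a total of 24167120.

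Clusters were named by alias and position (16074), position with at least 0.5 overlap (5023), alias (61) or first alias (6066). For a symbol with several clusters the one with the most reads was used; highest RPKM, as first planned, was an alternative. Positions count from 1, and the end was lowered by 1 to meet the annotation. Intervals were exact Poisson or conditional binomial (95%, scipy 1.17.1, pandas 2.3.3), checked on simulated data. Coding words of 32 bases were counted in the mm9 genome.

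Members and lists were chosen with earlier results of these data known; Hox, sex-linked, ribosomal and reference genes and the promoter motif were added after levels were seen. Named were the 25 highest clusters, the defining and 4 highest genes of each list, up to 4 expressed lineage genes per list, and the first 2 of families described; other genes were chosen after their values were seen. Promoters and their build are RefSeq's. Genes of the lists without a cluster (Shank1, Kcnq1ot1, Serpina1a, Cyp11a1, Pou1f1, Atp1a4, Vamp7) were not analysed here. A few genes named by this rule are left unreported.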

Additional observations from a re-analysis of the deposited data

How the results depend on the processing

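With 1 library no replicate could be left out, and the values below cover processing only. No paired analysis was possible because the groups had 1 library each and only the control was used. The number of clusters at 1 RPKM or more was 11494 and lay between 9277 and 13427 over 7 alternatives (limits of 0.3 and 3 RPKM, other totals, TPM, length and read minimums, no overlapping clusters). Identity genes expressed were 192 and lay between 159 and 223, lineage genes 44 and between 34 and 66, with TPM or the lower limit at the top. With the cluster of highest RPKM per symbol they were again 192 and 44. Restricting to genes under 10% repeated words, an alternative added after seeing the data, left 176 and 40, because fewer genes enter. The count of 120 silent lineage genes became 73 when silence meant 0 reads and 147 under 0.3 RPKM. The share of reads in the 10 first genes, 6.75%, became 4.91% without mitochondrial clusters, 5.58% when ranked by RPKM and 7.51% without overlapping clusters. Families led by 1 member were 21 of 101 at 90% and 35 at 75%, and 6 of 58 when every member had under 10% repeated words, also added later. The first member changed in 14 of 101 families when reads replaced RPKM, since length no longer entered, in 0 with clusters of a symbol summed, and in 3 of 93 without overlapping clusters: App gave way to Aplp1, Kif5b to Kif5c and Syt1 to Syt4.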

Other observations

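The Hox and sex-linked genes, added after their levels were seen, are given as values. The Hox genes, which record position along the body axis, were expressed from the C cluster more than from the others. Of 39 genes 9 reached 1 RPKM, 23 lay under 0.1 and 12 had 0 reads. The shares over all clusters were 42.2%, 45.8% and 36.4%, so the expressed count of the Hox genes lay under that share. In HoxC, on chromosome 15, 5 of 9 were expressed, with Hoxc10 at 17.8 RPKM (717 reads), Hoxc9 at 13.2 (547 reads), Hoxc6 at 5.37, Hoxc4 at 2.61 and Hoxc8 at 2.56, while Hoxc11, Hoxc12 and Hoxc13 had 0 reads. Hoxc10 exceeded Hoxc9 1.35 times (1.21 to 1.51), and the step from Hoxc10 to Hoxc11 went from 717 reads to 0. HoxB had 3 of 10 expressed, at most 2.07 RPKM for Hoxb6, HoxD 1 of 9 (Hoxd8, 1.22 RPKM) and HoxA 0 of 11. HoxC genes 9 and 10 belong to the trunk and lumbar levels of the axis in the embryo.

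Sex-linked transcripts showed Xist, the RNA that coats the inactive X chromosome, at 39.7 RPKM on 15296 reads, with 8.79% of its words repeated. Its antisense partner Tsix had 0 reads, but the library does not mark strand and reads in the shared stretch cannot be assigned. On the Y chromosome Ddx3y had 37 reads (0.337 RPKM) against 4895 for its X-linked partner Ddx3x (63.6 RPKM), Usp9y had 4 reads, Kdm5d and Uty 1 each, and Eif2s3y 0. No Y-linked cluster reached 1 RPKM.

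Of 19 measured genes on a list of imprinted genes, which does not hold Gnas, 11 were expressed and 4 were silent. Over all clusters 42.2% were expressed and 45.8% silent. Mest was highest at 648 RPKM, followed on this list by Peg10 at 46.6 RPKM, Snrpn at 35.4 and Peg3 at 23.6, all expressed from the paternal copy. H19, expressed from the maternal copy, lay at 12.9 RPKM, while Igf2 of the same locus lay at 0.534. Meg3 had 18 reads, and Ndn and Dlk1 had 2 each.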
